A study of Homo sapiens with 4 samples.

Results

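The 9 genes described here write, copy or remove the methyl group on cytosine, or make the metabolite that its removal needs: DNMT1, UHRF1, DNMT3A, DNMT3B, TET1, TET2, TET3, IDH1 and IDH2. They were chosen by symbol, as the rows whose Ensembl identifier maps to a member, and all 9 were found, with 1 row each, among 41084 identifiers. RNA was sequenced in 4 libraries of OCI-AML3, an established human acute myeloid leukaemia line that carries mutant DNMT3A. There were 2 libraries of the genotype Plex CEBPB and 2 of the genotype Plex Control, called CEBPB and Control from here. The sources used here do not explain Plex, and name no treatment, time or clone, so whether the libraries of a group came from separate cultures is unknown and the p-values measure the spread between these libraries, which may be technical. The comparison asks how the RNA of these genes differs between the CEBPB and Control genotypes.

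DNA methylation in mammals is set down by the de novo enzymes DNMT3A and DNMT3B and copied after each round of replication by DNMT1, which UHRF1 guides to hemimethylated DNA. TET1, TET2 and TET3 oxidise the methyl group, with 2-oxoglutarate as co-substrate, and the oxidised base is then lost by dilution or repair. IDH1 in the cytosol and IDH2 in mitochondria make 2-oxoglutarate from isocitrate, and leukaemia-associated mutant forms of both make 2-hydroxyglutarate, which inhibits TET enzymes. DNMT3A, TET2, IDH1 and IDH2 are among the genes most often mutated in acute myeloid leukaemia. RNA levels, not DNA methylation, were measured here, and gene-level values do not tell the mutant from the other allele of DNMT3A.

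The genotype was checked on CEBPB itself, the gene of a basic leucine zipper transcription factor, which stood at 4.72 and 4.47 TPM (a level per transcript length, scaled to the same total in every library) in the Control libraries and at 536 and 339 TPM in the CEBPB libraries. The groups also differed in WT1, a zinc finger factor that binds TET2, at 31498 and 30075 TPM in Control against 7.71 and 7.56 TPM in CEBPB. WT1's effective length, the mean length of the transcripts counted, was 453 and 425 bases in Control against 1668 and 1576 bases in CEBPB. Every value below compares groups that differ in both genes, so the parts of CEBPB and WT1 cannot be told apart, and where the WT1 signal in Control came from was not tested. Deposited counts totalled 18151225 to 21950575 per library. Of 10 myeloid markers, 7 were above 1 TPM in every library, and their summed level was 1887 to 1978 TPM in Control and 8168 to 8471 TPM in CEBPB. The difference lay in the lysozyme gene LYZ, at 1413 and 1308 TPM in Control and 7686 and 7921 TPM in CEBPB. The other 9 markers summed to 565 and 579 TPM in Control and to 481 and 550.0 TPM in CEBPB, and they moved in both directions. SPI1, FLT3, CSF1R and MPO were lower in both CEBPB libraries than in both Control libraries. ITGAM, MEIS1 and PTPRC were higher in both CEBPB libraries, and CD33 and HOXA9 overlapped between the groups. The 4 erythroid markers and the T cell markers CD3E and CD2 were listed at 0, the B cell markers summed to 0.748 to 2.12 TPM, and of the 6 epithelial and stromal markers only PECAM1, which myeloid cells also express, exceeded 2 TPM. Fewer cells of a kind and less RNA per cell cannot be told apart in such bulk libraries.

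In the fit over all identifiers 6641 of 13698 tested (48.5%) passed an adjusted p of 0.05, with 3251 higher (23.7%) and 3390 lower (24.7%) in CEBPB. Of the 9 members, all tested, 2 were higher (IDH1 and TET2), 3 were lower (UHRF1, DNMT3B and IDH2) and 4 did not pass (DNMT1, DNMT3A, TET1 and TET3), a share close to that of all identifiers. The median log2 fold change was -0.25 over the members and 0.00092 over all identifiers. Fold changes and adjusted p-values below are edgeR's quasi-likelihood test with Benjamini-Hochberg adjustment over all identifiers, as CEBPB against Control. Scaling by library totals, which is also the scale of TPM, moved the median of all identifiers to 0.18 on the log2 scale, so a TPM ratio lies above the fitted fold change by about that much. The split of called identifiers then became 4424 higher and 2360 lower, 65.2% higher against 49.0%. A change of scaling shifts all log2 fold changes by nearly the same amount, so distances from the median are kept by construction. Under both scalings these were -1.26 for UHRF1, -0.77 for IDH2, -0.75 for DNMT3B, 0.34 for TET2 and 1.46 for IDH1. The same direction was called for all 5.

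**Figure D1:**
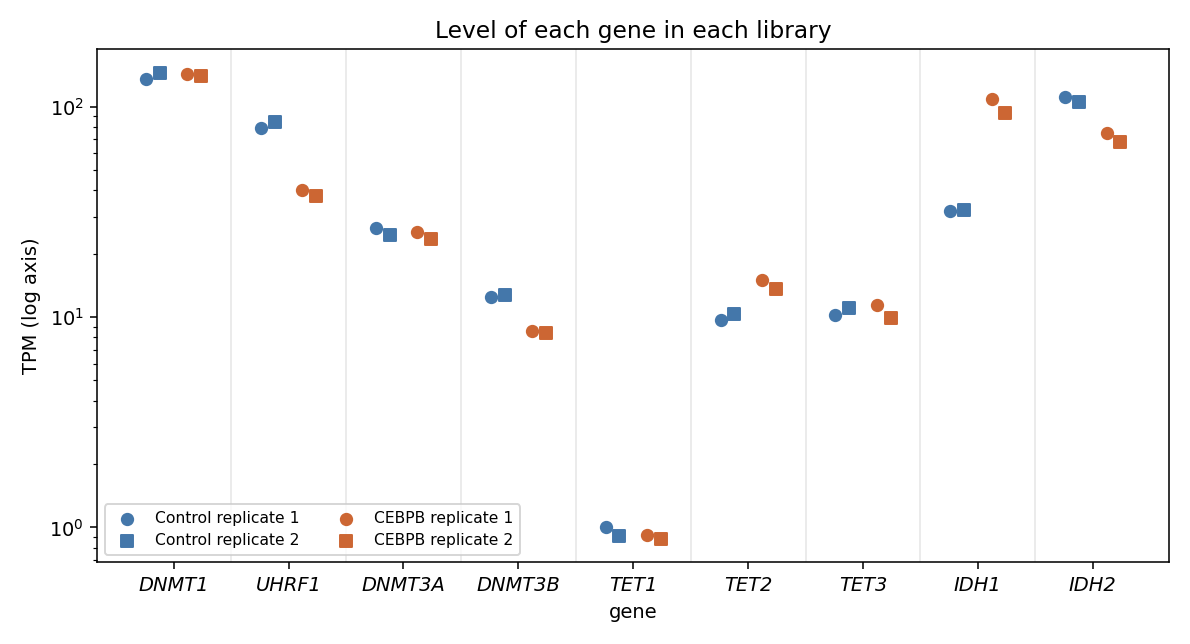
TPM on a log axis for each of the 9 members, with 1 point per library (2 Control, 2 CEBPB). IDH1 lies far higher and UHRF1, DNMT3B and IDH2 lower in both CEBPB libraries, while the points of DNMT1, DNMT3A, TET1 and TET3 interleave.

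UHRF1 (ENSG00000276043.5, chr19:4903080-4962154, plus strand, GRCh38, GENCODE v29) fell, and the methyltransferase it recruits did not pass the test. UHRF1 stood at 79.5 and 84.1 TPM in the Control libraries and at 40.2 and 37.4 TPM in the CEBPB libraries. Both CEBPB libraries were far below both Control libraries. The group means were 81.8 ± 3.24 TPM (SD, n = 2) and 38.8 ± 1.97 TPM, and the log2 fold change was -1.26 (SE 0.068, adjusted p = 0.000236), the 895th lowest of 13698. In all 21 alternative settings UHRF1 remained lower, with log2 fold changes of -1.30 to -1.06.

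DNMT1 (ENSG00000130816.17, chr19:10133345-10231286, minus strand), the maintenance methyltransferase, was the member with the highest level in both groups. Its level was 135.0 and 144.7 TPM in Control and 143.0 and 139.1 TPM in CEBPB. Both CEBPB values lay between the Control values, with means of 140 ± 6.87 TPM and 141 ± 2.79 TPM. The log2 fold change was -0.17 (SE 0.067, adjusted p = 0.0920), and with library totals it turned to 0.013 (adjusted p = 0.896). Reads recovered from TPM and effective length, which keep the length that the deposited counts leave out, were called lower, at -0.36 (adjusted p = 0.00112), as was DESeq2's test at -0.17 (adjusted p = 0.0392). Recovered reads called 61.2% of all identifiers, 30.5% higher and 30.7% lower, and 8 of the 9 members, 2 higher and 6 lower. With the length as an offset on those reads DNMT1 did not pass (-0.17, adjusted p = 0.0675). UHRF1 per DNMT1, a ratio of TPM within a library that no scaling can move, was 0.589 and 0.581 in Control and 0.281 and 0.269 in CEBPB, so it was lower in both CEBPB libraries.

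Promoter sequence of UHRF1 is shown because E2F words, found in promoters of many S phase genes, occur in its windows. RefSeq windows of 300 bases (250 before a start and 50 after it, GRCh38.p14) were matched for all 9 members, 21 windows in all. The stretch before the second UHRF1 start, chr19:4909894-4910143 on the plus strand, holds 32 CpG in 250 bases. Capitals mark the E2F word.
UHRF1: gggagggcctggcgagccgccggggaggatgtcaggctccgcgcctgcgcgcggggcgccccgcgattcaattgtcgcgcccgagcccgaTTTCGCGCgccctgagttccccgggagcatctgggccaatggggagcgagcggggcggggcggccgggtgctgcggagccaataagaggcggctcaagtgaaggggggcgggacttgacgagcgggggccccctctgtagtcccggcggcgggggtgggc
E2F words were searched as TTTCCCGC, TTTCGCGC, TTTGGCGC and TTTGCCGC on both strands. They occurred in 3.31% of 35116 RefSeq windows and in 3 of the 21 member windows, 2 of UHRF1 and 1 of DNMT1. The C/EBP word TTGCNNAA, searched likewise, occurred in 10.5% of all windows and in 2 member windows, 1 of TET1 and 1 of IDH2. A match is a description of letters, not a bound site. Member windows held a median of 26 CpG against 14 over all windows (quartiles 4 and 28).

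The partners of maintenance methylation moved in both directions. Of 16 fixed genes, all tested, 3 were higher, 5 lower and 8 not called, with a median log2 fold change of -0.16. Over all identifiers 23.7% were higher and 24.7% lower, shares that also stand beside the counts of each list below. CDCA7, which activates the nucleosome remodeller HELLS, fell from 59.5 ± 2.39 to 28.5 ± 1.36 TPM (log2 fold change -1.24, adjusted p = 0.000253). Among 149 genes of the partner lists, CDCA7 lay nearest to UHRF1 in its log2(TPM + 1) pattern over the 4 libraries, at a Euclidean distance of 0.0239. With 2 libraries a group, here and below, such a distance largely follows the fold change and is no separate evidence of a link. HELLS itself did not pass (24.8 and 26.0 TPM as group means, adjusted p = 0.475), nor did PCNA, the replication clamp that DNMT1 binds (393 TPM in both groups, adjusted p = 0.0554). PCLAF, a PCNA-binding protein that takes part in DNMT1 recruitment, fell from 156 ± 4.49 to 126 ± 4.82 TPM (log2 fold change -0.48, adjusted p = 0.00243, and -0.30 with library totals, adjusted p = 0.0168). KAT5, an acetyltransferase that acts on DNMT1, rose from 21.5 ± 0.0217 to 45.8 ± 1.94 TPM (log2 fold change 0.91, adjusted p = 0.000526), and CDCA7L, the paralog of CDCA7, rose from 104 ± 7.78 to 172 ± 4.15 TPM (log2 fold change 0.55, adjusted p = 0.0029). The count of lower partners was 3 without Control replicate 1, 3 without Control replicate 2 and 2 with library totals.

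Of 22 S phase genes, which rise with replication as UHRF1 does in dividing cells, 15 were lower, 4 higher and 3 not called, with a median of -0.47. POLD1, the catalytic subunit of DNA polymerase delta, fell from 62.3 ± 0.268 to 30.9 ± 4.07 TPM (log2 fold change -1.19, adjusted p = 0.000444). The helicase subunit MCM2 fell from 134 ± 3.41 to 90.4 ± 5.57 TPM (log2 fold change -0.75, adjusted p = 0.000694), and the licensing factor CDT1 from 33.2 ± 0.163 to 21.6 ± 1.53 TPM (log2 fold change -0.80, adjusted p = 0.000942). RRM2, a subunit of ribonucleotide reductase, went the other way, from 334 ± 3.22 to 868 ± 133 TPM (log2 fold change 1.20, adjusted p = 0.000537). These genes moved beside UHRF1, and the part of the cell cycle in the UHRF1 difference was not tested.

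The de novo enzymes parted, with DNMT3B lower and DNMT3A not passing. DNMT3B (ENSG00000088305.19, chr20:32762385-32809356, plus strand) stood at 12.5 and 12.8 TPM in Control and at 8.60 and 8.37 TPM in CEBPB. The groups did not overlap, as in UHRF1 and IDH2 and in the 28.6% of all identifiers whose TPM was lower in both CEBPB libraries, and the means were 12.6 ± 0.201 and 8.48 ± 0.158 TPM. The log2 fold change was -0.75 (SE 0.11, adjusted p = 0.00388), called in 20 of 21 alternatives but not in a test against a change of 1.5-fold (adjusted p = 0.134). The partner-list gene with the nearest pattern was NNT, the mitochondrial transhydrogenase, at a distance of 0.0566.

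DNMT3A (ENSG00000119772.19, chr2:25227855-25342590, minus strand), mutant in this line, stood at 26.5 and 24.5 TPM in Control and at 25.2 and 23.5 TPM in CEBPB. The groups overlapped, with means of 25.5 ± 1.43 and 24.4 ± 1.23 TPM. The log2 fold change of -0.25 (SE 0.083) missed the threshold at an adjusted p of 0.0585 in edgeR's test. Recovered reads were called lower at -0.24 (adjusted p = 0.0160), and at -0.25 (adjusted p = 0.0405) with the length offset. With library totals the change was -0.065 (adjusted p = 0.609). DNMT3A per DNMT3B within a library was 2.12 and 1.92 in Control and 2.93 and 2.81 in CEBPB, higher in both CEBPB libraries.

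DNMT3L, the catalytically inactive partner of the de novo enzymes in germ cells, was listed at 0 in all 4 libraries. Of the other 11 de novo partners, all tested, 5 were higher, 3 lower and 3 not called, with a median of 0.25. KDM2B, a CpG-island binding demethylase that guards islands from methylation, fell from 44.3 ± 0.00654 to 24.8 ± 0.903 TPM (log2 fold change -1.01, adjusted p = 0.000386). NSD2, which writes the H3K36 dimethyl mark that DNMT3A reads, fell from 75.5 ± 1.04 to 62.4 ± 2.60 TPM (log2 fold change -0.46, adjusted p = 0.00303), and the corepressor TRIM28 from 698 ± 12 to 640 ± 3.95 TPM (log2 fold change -0.30, adjusted p = 0.0106). TRIM28 lost its call in 7 of the 21 alternatives, and with library totals its change was -0.13 (adjusted p = 0.111). NSD2 remained called with library totals, at -0.28 (adjusted p = 0.0267). QSER1, which keeps DNMT3 enzymes away from methylation valleys, rose from 13.2 ± 0.841 to 23.5 ± 4.07 TPM (log2 fold change 0.65, adjusted p = 0.00974). The count of higher genes fell whichever library was left out, as did the count of higher identifiers over the whole fit.

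Genes listed as methyl-CpG readers, not all of whose products bind the finished mark, were higher or not called. Of 10 tested, 5 were higher, 5 not called and 0 lower, with a median of 0.28. With edgeR at an unadjusted p under 0.05 the lower count was 0, and with DESeq2 at an adjusted p of 0.05 it was 0. UHRF1, which acts at hemimethylated DNA and was lower (log2 fold change -1.26), is outside this list. ZBTB38 rose from 4.59 ± 0.216 to 8.83 ± 0.606 TPM (log2 fold change 0.77, adjusted p = 0.00868) and MBD5 from 6.56 ± 0.600 to 11.1 ± 1.61 TPM (log2 fold change 0.58, adjusted p = 0.0238). MBD2, which brings the NuRD complex to methylated DNA, rose from 59.0 ± 11.9 to 97.9 ± 10.5 TPM (log2 fold change 0.55, adjusted p = 0.0266), and MBD1 from 43.7 ± 0.179 to 60.6 ± 2.49 TPM (log2 fold change 0.29, adjusted p = 0.0320). Without Control replicate 1 only 1 reader was called higher, without Control replicate 2 there were 3, without CEBPB replicate 1 there were 2 and without CEBPB replicate 2 there were 3. Germline genes whose promoters are silenced by methylation in somatic cells were mostly too low to test, with 13 of 16 left out by the filter on low counts. Of the 3 tested, SOHLH2 fell from 2.37 ± 0.306 to 0.994 ± 0.0186 TPM (log2 fold change -1.42, adjusted p = 0.0141) and RPL39L from 37.6 ± 1.22 to 34.9 ± 1.75 TPM (log2 fold change -0.29, adjusted p = 0.0207, and -0.11 with library totals, adjusted p = 0.340). Neither was called without Control replicate 1, Control replicate 2 or CEBPB replicate 1, and 1 was called without CEBPB replicate 2 and with library totals.

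**Figure D2:**
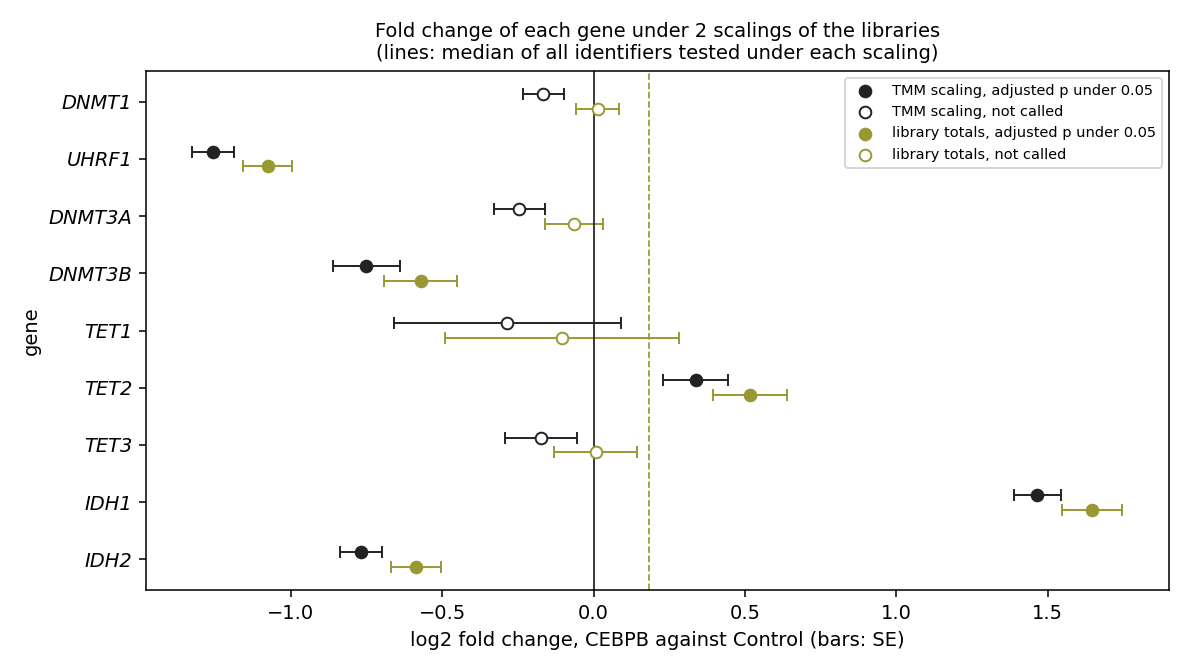
Log2 fold change of each member, CEBPB against Control, from edgeR with TMM scaling (trimmed mean of M-values, dark points) and with library totals (olive points), with bars for the SE, filled points for an adjusted p under 0.05 and vertical lines for the median of all identifiers under each scaling. The same 5 members are filled under both scalings, each shifted by about 0.18, and DNMT1 and TET3 lie on either side of 0.

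TET2 was the only TET gene that passed the test, and the weakest of the 5 calls. TET2 (ENSG00000168769.14, chr4:105145875-105279816, plus strand) stood at 9.72 and 10.3 TPM in Control and at 15.0 and 13.5 TPM in CEBPB. Both CEBPB libraries were above both Control libraries, as in IDH1 and in 48.7% of all identifiers tested. The means were 9.999 ± 0.396 and 14.3 ± 1.05 TPM, a TPM ratio of 1.43. The log2 fold change was 0.34 (SE 0.11, adjusted p = 0.0481), and it was positive in all 21 alternatives, from 0.29 to 0.52. The call was lost in 8 of the 21, with adjusted p-values of 0.207 without Control replicate 1, 0.125 without Control replicate 2, 0.133 without CEBPB replicate 1, 0.0840 without CEBPB replicate 2 and 0.130 with DESeq2. With library totals it was 0.52 (adjusted p = 0.0174). ZMYND11, a reader of H3K36 trimethylation on the histone variant H3.3, had the nearest pattern, at a distance of 0.0397.

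TET3 (ENSG00000187605.16, chr2:73986404-74108176, plus strand) stood at 10.2 and 11.0 TPM in Control and at 11.4 and 9.92 TPM in CEBPB. The CEBPB values lay on either side of the Control values. The fitted change of TET3 was -0.17 on the log2 scale (SE 0.12, adjusted p = 0.279) and 0.0066 with library totals. Recovered reads were called lower at -0.19 (adjusted p = 0.0405), but not with the length as an offset (-0.18, adjusted p = 0.0970). TET1 (ENSG00000138336.9, chr10:68560656-68694482, plus strand) was the lowest member, at 1.01 and 0.911 TPM in Control and 0.921 and 0.880 TPM in CEBPB. The TET1 groups overlapped, with a fitted change of -0.28 on the log2 scale (SE 0.38, adjusted p = 0.568). The deposited counts leave out length, so its 113 to 152 recovered reads entered the fit as 16.0 to 20.2 counts, and on those reads with the length as an offset the adjusted p was 0.247.

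Within a library TET2 took a larger part of the TET RNA in CEBPB. TET2 made up 46.4% and 46.3% of the summed TPM of TET1, TET2 and TET3 in Control and 54.9% and 55.6% in CEBPB. TET2 per TET3 was 0.949 and 0.933 in Control and 1.31 and 1.37 in CEBPB. In Control TET3 and TET2 were neighbours in the order of levels with overlapping libraries, while in CEBPB TET2 lay above TET3 in both. The summed TET level was 21.0 and 22.2 TPM in Control and 27.4 and 24.3 TPM in CEBPB. On that scale the median of all identifiers also rose, by 0.18 on the log2 scale, so the sums carry this shift.

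**Figure D3:**
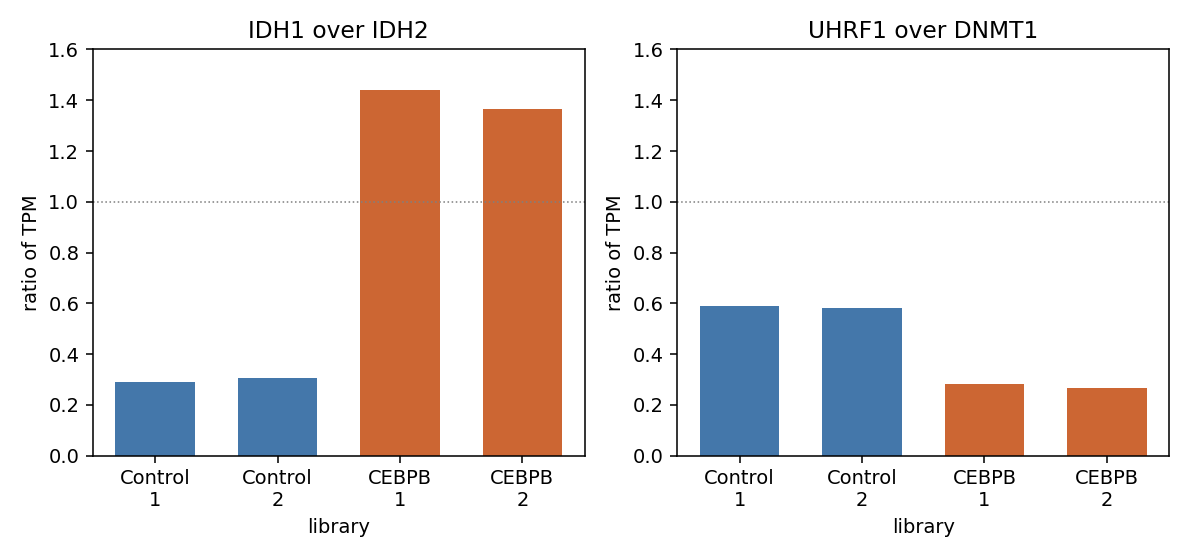
Ratio of TPM within each library, 1 bar per library, for IDH1 over IDH2 (left) and UHRF1 over DNMT1 (right), with a dotted line at a ratio of 1. The IDH ratio crosses 1, from 0.289 and 0.308 in Control to 1.44 and 1.36 in CEBPB, and the UHRF1 ratio falls from 0.589 and 0.581 to 0.281 and 0.269.

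Partners and regulators of TET enzymes moved in both directions. Of 14, 12 were tested, with 3 higher, 7 lower and 2 not called, and a median of -0.49 (all identifiers: 23.7% higher, 24.7% lower). WT1, given above, had a log2 fold change of -12.16 (adjusted p = 9.8e-07). CXXC5, a CpG-binding protein that can lower TET2 protein, fell from 57.0 ± 2.16 to 8.80 ± 0.775 TPM (log2 fold change -2.87, adjusted p = 7.9e-05). SPI1, the myeloid factor PU.1 that can bind TET2, fell from 221 ± 3.58 to 112 ± 11.9 TPM (log2 fold change -1.16, adjusted p = 0.000954). EGR1, an immediate-early factor that can recruit TET1, rose from 3.01 ± 0.173 to 37.6 ± 8.33 TPM (log2 fold change 3.47, adjusted p = 0.000197). The higher count fell to 1 when Control replicate 1, Control replicate 2 or CEBPB replicate 1 was left out.

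Genes of base excision, a repair path of which only a part acts on the oxidised base itself, held 2 higher, 4 lower and 6 not called. That was of 12 tested, with a median of -0.11, where 23.7% of all identifiers were higher and 24.7% lower. The uracil glycosylase UNG fell from 90.8 ± 1.74 to 43.8 ± 1.21 TPM (log2 fold change -1.23, adjusted p = 0.000219) and the endonuclease APEX1 from 121 ± 3.48 to 74.99 ± 0.547 TPM (log2 fold change -0.87, adjusted p = 0.000518). The scaffold XRCC1 fell from 39.0 ± 0.470 to 29.02 ± 0.969 TPM (log2 fold change -0.61, adjusted p = 0.00167). The gap-filling polymerase POLB rose from 42.2 ± 5.42 to 75.2 ± 3.30 TPM (log2 fold change 0.65, adjusted p = 0.00462). The higher count was 1 without Control replicate 1 or CEBPB replicate 2.

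IDH1 and IDH2 moved in opposite directions, and their order turned. IDH1 (ENSG00000138413.14, chr2:208236227-208266074, minus strand), the cytosolic enzyme, stood at 32.0 and 32.3 TPM in Control and at 108 and 92.9 TPM in CEBPB. Both CEBPB libraries were far above Control, with means of 32.1 ± 0.206 and 101 ± 10.9 TPM. The log2 fold change was 1.46 (SE 0.078, adjusted p = 0.000225), a 2.76-fold rise and the 778th highest of 13698, against a TPM ratio of 3.13. All 21 alternatives called IDH1 higher, from 1.40 to 1.65.

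IDH2 (ENSG00000182054.10, chr15:90083045-90102504, minus strand), the mitochondrial enzyme, stood at 110.5 and 104.8 TPM in Control and at 75.2 and 68.1 TPM in CEBPB. Both CEBPB libraries were below both Control libraries, with means of 108 ± 4.05 and 71.6 ± 5.06 TPM. The log2 fold change was -0.77 (SE 0.068, adjusted p = 0.000813), and all 21 alternatives called IDH2 lower, from -0.81 to -0.58. Against a change of 1.5-fold, which 17.3% of all identifiers passed, IDH1 (adjusted p = 0.00063), UHRF1 (adjusted p = 0.000875) and IDH2 (adjusted p = 0.0336) were the 3 members called, 1 higher (8.66% of all identifiers) and 2 lower (8.67%).

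IDH1 per IDH2 within a library was 0.289 and 0.308 in Control and 1.44 and 1.36 in CEBPB. IDH2 was thus the higher of the pair in both Control libraries and IDH1 in both CEBPB libraries. Their summed level was 142.5 and 137.1 TPM in Control and 183.5 and 160.9 TPM in CEBPB, which also carries the 0.18 shift of the TPM scale. Nearest in pattern was RRM2 for IDH1, at a distance of 0.255, and CDT1 for IDH2, at 0.0632. The distance for IDH1 was the largest of the 5 called members.

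Stretches before a RefSeq start of each are shown because the levels of this pair moved apart. For IDH1 it is chr2:208254459-208254708 on the minus strand, with 13 CpG, before a start shared with GENCODE. For IDH2 it is chr15:90100696-90100871 on the minus strand, with 2 CpG, before an alternative start 74 bases from the nearest GENCODE start. Both stretches, like that of UHRF1 above, lie inside the gene as annotated and not at its outermost start. Both hold no C/EBP or E2F word, so no letters are in capitals, which says only that those letters are not in these stretches. The C/EBP word of the full IDH2 window, counted above, is not wholly within the stretch shown.
IDH1: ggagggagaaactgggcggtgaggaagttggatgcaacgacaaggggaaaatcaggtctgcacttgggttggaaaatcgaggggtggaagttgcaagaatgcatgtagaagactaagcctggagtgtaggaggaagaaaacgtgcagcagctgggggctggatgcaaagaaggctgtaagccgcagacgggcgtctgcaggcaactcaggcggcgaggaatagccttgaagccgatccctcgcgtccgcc
IDH2: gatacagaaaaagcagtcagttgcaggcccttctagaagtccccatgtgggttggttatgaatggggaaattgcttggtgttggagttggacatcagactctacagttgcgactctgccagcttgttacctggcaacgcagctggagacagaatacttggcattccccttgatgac

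Other enzymes of isocitrate, 2-oxoglutarate and 2-hydroxyglutarate went down more often than up. Of 21, 20 were tested, with 2 higher, 10 lower and 8 not called, and a median of -0.27. With library totals the counts were 4 higher and 6 lower, and 1 was higher without Control replicate 1, Control replicate 2 or CEBPB replicate 1. DLD, the shared dehydrogenase subunit of the 2-oxoglutarate and pyruvate complexes, rose from 110 ± 4.55 to 262 ± 22.9 TPM (log2 fold change 1.07, adjusted p = 0.000375). BCAT1, the cytosolic branched-chain transaminase that consumes 2-oxoglutarate, fell from 30.9 ± 0.765 to 15.6 ± 0.331 TPM (log2 fold change -1.16, adjusted p = 0.000508). GLUD1, which makes 2-oxoglutarate from glutamate, fell from 111 ± 6.41 to 70.4 ± 0.332 TPM (log2 fold change -0.83, adjusted p = 0.000843), and NNT, which supplies mitochondrial NADPH, from 45.9 ± 0.307 to 32.8 ± 1.11 TPM (log2 fold change -0.66, adjusted p = 0.00111).

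The methyl donor cycle, which makes S-adenosylmethionine for the DNMT enzymes, had 5 lower, 1 higher and 5 not called of 11 tested, with a median of -0.21. Lower and higher shares over all identifiers were 24.7% and 23.7%. AHCY, which clears the inhibitory product of methylation, fell from 211 ± 10.4 to 121 ± 5.90 TPM (log2 fold change -0.98, adjusted p = 0.000388). MAT2A, which makes the donor itself, fell from 220 ± 1.61 to 155 ± 7.62 TPM (log2 fold change -0.69, adjusted p = 0.000727), and the salvage enzyme MTAP from 60.0 ± 0.401 to 36.8 ± 4.03 TPM (log2 fold change -0.89, adjusted p = 0.00076). MTRR, which keeps methionine synthase active, rose from 54.1 ± 0.991 to 107 ± 2.41 TPM (log2 fold change 0.80, adjusted p = 0.000925). With library totals the higher count was 2.

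Other 2-oxoglutarate dioxygenases, which share the co-substrate of the TET enzymes, were higher in 9 of 17 tested and lower in 0, with a median of 0.55. The lower count was 0 at an unadjusted p under 0.05 in edgeR and 0 with DESeq2 at an adjusted p of 0.05, and at most 1 under any setting, and the higher count was 13 with library totals. All 17 had higher TPM in both CEBPB libraries than in both Control libraries, as did 48.7% of all identifiers tested. These counts depend on how the lists were drawn. The demethylase KDM2B, placed among the de novo partners above, is outside this list and was lower (log2 fold change -1.01, adjusted p = 0.000386). The histone demethylase KDM6A rose from 12.3 ± 0.372 to 27.7 ± 2.50 TPM (log2 fold change 0.99, adjusted p = 0.000897) and KDM5B from 29.5 ± 1.05 to 70.9 ± 14.4 TPM (log2 fold change 1.08, adjusted p = 0.00183). KDM2A rose from 39.0 ± 1.44 to 64.5 ± 3.37 TPM (log2 fold change 0.55, adjusted p = 0.00213), and the oxygen sensor EGLN1 from 30.4 ± 4.04 to 67.8 ± 13.1 TPM (log2 fold change 0.97, adjusted p = 0.00376).

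**Figure D4:**
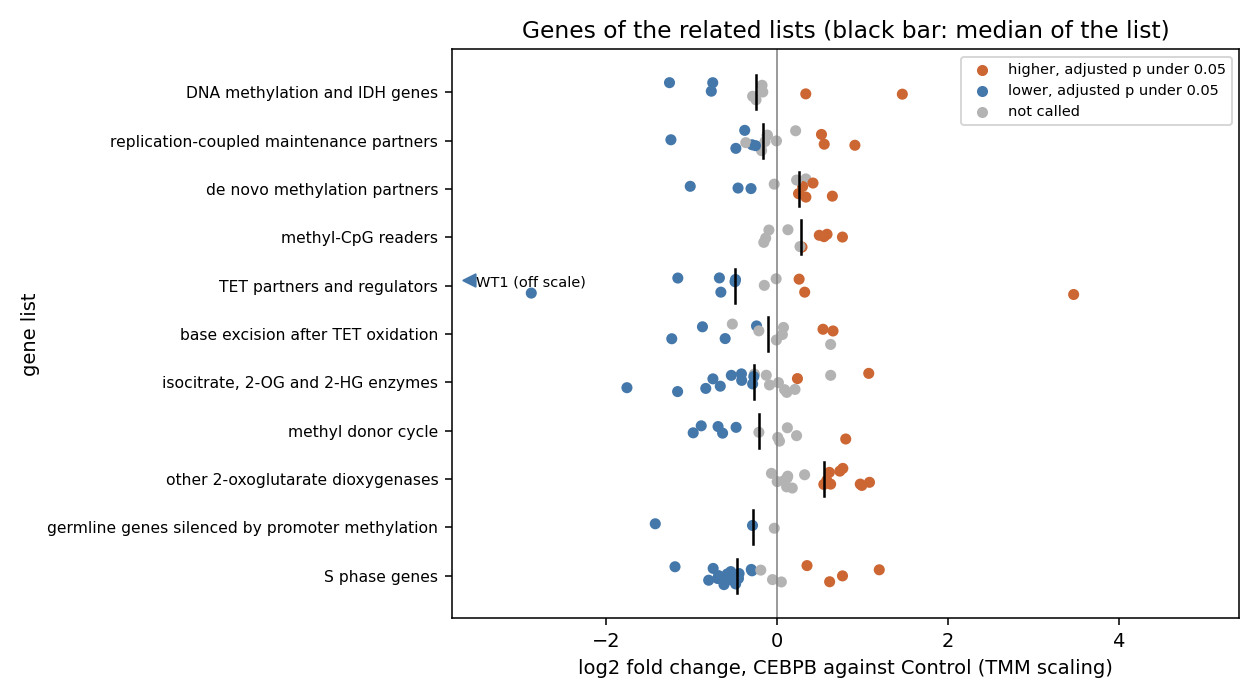
Log2 fold change of each tested gene, CEBPB against Control with TMM scaling, in the members and 10 of the partner lists (1 point per gene, coloured by call, with a black bar for each list's median and WT1 off scale). Lower calls outnumber higher ones among S phase genes (15 against 4), and the lists of readers and of other dioxygenases hold higher or uncalled genes.

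Of 17 other genes mutated in acute myeloid leukaemia that were tested, 5 were higher, 8 lower and 4 not called, with a median of -0.044. Among all identifiers 23.7% were higher and 24.7% lower. CEBPA, a paralog of CEBPB, fell from 91.4 ± 2.35 to 11.8 ± 0.411 TPM (log2 fold change -3.14, adjusted p = 6.9e-05), and the receptor FLT3 from 30.7 ± 2.52 to 8.59 ± 0.0426 TPM (log2 fold change -2.02, adjusted p = 0.000197). NPM1, a nucleolar chaperone, fell from 2309 ± 3.19 to 1346 ± 45.1 TPM (log2 fold change -0.96, adjusted p = 0.000253). Without Control replicate 1 or Control replicate 2 the higher count was 2.

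In Control the members ranked, from high to low mean TPM, as DNMT1, IDH2, UHRF1, IDH1, DNMT3A, DNMT3B, TET3, TET2 and TET1. Only TET3 and TET2 were neighbours whose libraries overlapped. In CEBPB the order was DNMT1, IDH1, IDH2, UHRF1, DNMT3A, TET2, TET3, DNMT3B and TET1, with no overlapping neighbours. IDH1 and TET2 had moved up, and DNMT3B had moved below both TET2 and TET3.

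The deposited effective length, an average over the transcripts counted for a gene, changed most for DNMT1 and IDH1. DNMT1 was at 3280 and 3088 bases in Control and 2999 and 2781 bases in CEBPB, a mean difference of -9.24%. IDH1 was at 1582 and 1620 bases in Control and 1694 and 1728 bases in CEBPB, longer by 6.85%. UHRF1, TET1, TET2 and TET3 were longer in CEBPB by 2.16% to 2.54%, with groups that did not overlap. DNMT3A, DNMT3B and IDH2 overlapped. Over all identifiers tested 43.0% were longer and 9.27% shorter without overlap, with a median difference of 2.27% and deciles of -7.22% and 16.0%. DNMT1 was thus beyond the lower decile, and the other separated members lay between the deciles. Which transcripts changed cannot be read from the gene-level files.

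**Figure D5:**
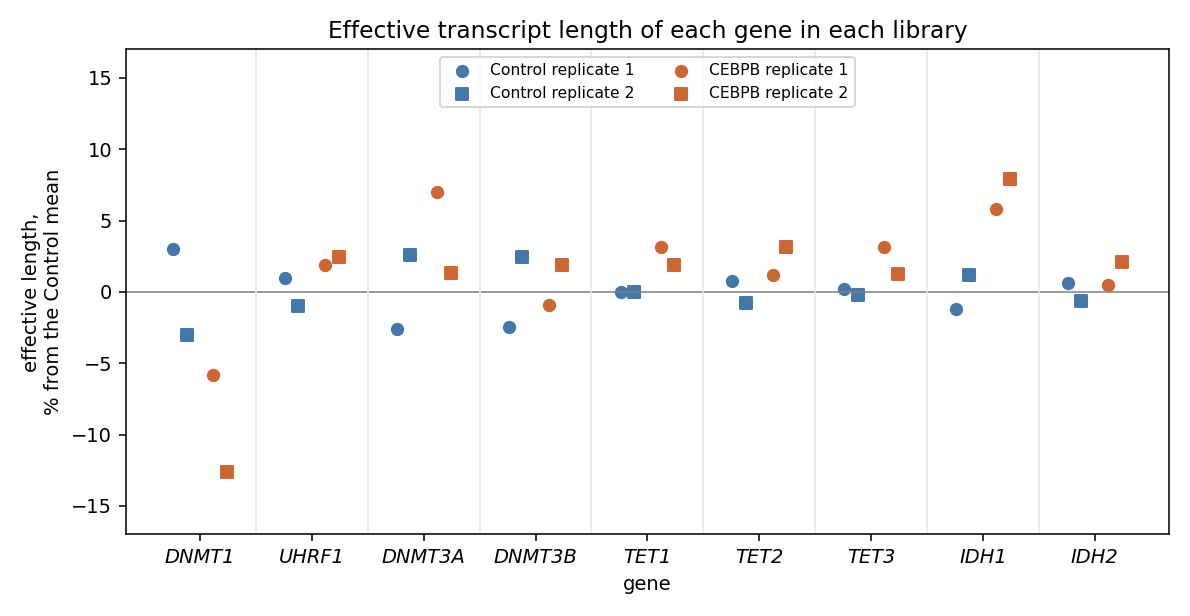
Effective length of each member as a percent difference from its Control mean, with 1 point per library (2 Control, 2 CEBPB). DNMT1 is shorter in both CEBPB libraries and IDH1 longer.

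Genes that overlap or copy the members were low where they were listed. S1PR2, which overlaps DNMT1 on the same strand, was at 0.148 to 0.561 TPM, and the pseudogene COX20P1 within TET1 was at 0 to 0.596 TPM. The pseudogenes TET1P1 and RPS3AP37 were listed at 0. The antisense genes IDH1-AS1 and TET2-AS1 were not analysed here.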

How the data were processed

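RNA of OCI-AML3 cells was sequenced as stranded poly(A) libraries, per the labels' protocols. The submitters' processing notes name Trimmomatic 0.39, kallisto 0.46.2 and GRCh38. Which annotation kallisto used, its strand option and how transcripts were summed per gene are not given in the sources used here. The authors deposited gene-level TPM, expected counts under the name raw counts, and effective lengths in bases (a further unit, other than counts and TPM, in the deposited files). In the deposited expected counts each value equals TPM times 1 constant per library, so they carry no transcript length. Symbols from the GENCODE v29 table matched 35690 of 41084 identifiers.

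After rounding to whole numbers, the deposited counts went into edgeR 4.0.16 (R 4.3.3, filterByExpr, TMM factors of 0.938 to 1.09, quasi-likelihood test, Benjamini-Hochberg adjustment, threshold 0.05). The biological coefficient of variation was 11.3%. Each SE is the absolute log2 fold change divided by the square root of the test's F statistic, and is not a value that edgeR reports. Reads per gene were rebuilt by multiplying TPM by effective length and scaling to the library's deposited total. Values from 0.2 to 500 came out whole (to 0.01) in 58.7% to 60.8% of cases per library, and edgeR called 8388 of 13704 identifiers on the rebuilt reads. Alternatives used DESeq2 1.42.0, limma 3.58.1 on log2(TPM + 1) and log2(TPM + 0.1), other scalings and filters, and leaving out each library. The members and the 11 partner lists were chosen with earlier results of these data known. All members were named, and from each list up to 4 called genes with the smallest adjusted p, with at least 1 of each direction, besides PCNA, HELLS, NPM1, CEBPB, WT1 and DNMT3L. The result for 1 gene so chosen is not reported here. The nearest pattern was the smallest Euclidean distance of log2(TPM + 1) deviations over 4 libraries. Promoter windows were taken from RefSeq (GRCh38.p14).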

Additional observations from a re-analysis of the deposited data

How the results depend on the processing

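The directions and calls of UHRF1, IDH1 and IDH2 held in all 21 alternatives, and that of DNMT3B in 20. Some of the 21 were added after seeing the data and are named below. A test against a 1.5-fold change called 2374 identifiers (1186 higher, 1188 lower) and 3 members, of which 1 was higher. With recovered reads 8 members were called, 6 of them lower. With no filter on low counts, with DESeq2 and with the replicate block 1 member was higher, since TET2 was lost. DNMT1 reversed to 0.013 with library totals, 0.0132 with limma on log2(TPM + 1) and 0.0133 with log2(TPM + 0.1), and TET3 to 0.0066, 0.0040 and 0.0041, none called. Leaving out 1 library in turn gave 4687 to 5883 identifiers called and 4 members (1 higher, 3 lower) each time, with a lone library assumed to vary like the other group. Same-numbered libraries did not deviate together (correlation -0.0131), so the numbers were not taken to pair them. With the replicate block 6482 identifiers (3174 higher, 3308 lower) and 4 members were called. Leaving out WT1, chosen after seeing the data, changed no member's call. With library totals taken without WT1, also added after seeing the data, DNMT1 was at -0.032 and TET3 at -0.038, on the same side of 0 as with TMM scaling. Leaving out identifiers with a mean effective length under 100 bases was likewise added. It was done with TMM scaling, and with library totals also taken without WT1, and neither setting changed a member's call. With 2 libraries a group and no depth other than the deposited totals, changes as small as those of DNMT1, DNMT3A and TET3 were called under some settings and not under others.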
